A study of Mus musculus with 35 samples.

Results

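The genes described here carry out and prepare DNA replication. They are 49 genes for origin licensing, helicase activation, DNA synthesis, nucleotide supply and S-phase control. They were listed by name, with earlier results of these data known. All 49 had a row among the 9239 genes with deposited counts, and all passed the filter on low counts. The study asked what loss of Chtop, an RNA-binding protein of mRNA export, and re-expression of its isoforms do to polyadenylated transcripts. It sequenced 35 libraries of total lysate, nuclei or cytoplasm from N2a Flp-In rtTA cells, a mouse neuroblastoma line, and each of 2 derived lines was measured under 3 conditions. Rescue cells received the Chtop siRNA and doxycycline, which turned on a FLAG-tagged, siRNA-resistant Chtop cDNA without exon 5 (mEx5 line) or with it (pEx5 line). The drug was added with a medium change 24 h after transfection, and cells were harvested at 72 h. Knockdown cells received the same siRNA, and control cells a non-targeting siRNA pool, with no doxycycline given in the labels of either. All groups carry the cDNA and rtTA, and the parental line was not analysed here. Control siRNA with doxycycline was not analysed here, so effects of doxycycline or of tagged protein alone cannot be told apart from rescue. Controls were grown in 2 dishes and the other conditions in 3, so the number of dishes cannot be told apart from the siRNA. Each group held 2 biological replicates per fraction, except 1 library for the cytoplasmic pEx5 control. Of the cells, 20% by number were kept as total lysate. The fractions of a line, condition and replicate number thus share their cells and are not independent.

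As background, replication starts when the origin recognition complex, CDC6 and CDT1 load the MCM2-7 helicase in G1, a step called licensing. At the onset of S phase CDC45 and the GINS complex join MCM to make the active helicase, primase and the polymerases copy the strands, and the clamp PCNA, flap nuclease and ligase complete the lagging strand. Many of these genes are textbook targets of E2F transcription factors, whose activity rises as cells leave G1. In bulk RNA a larger share of cells in S phase and more RNA per cell cannot be told apart.

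Library totals ranged from 20652832 to 36102129 counts (lysates), from 11681781 to 28705620 (nuclei) and from 19478702 to 40105458 (cytoplasm), and the lowest count of any member in any library was 125 (Gins3). Chtop was at 32.2 and 34.7 CPM (counts scaled to library size) in mEx5 and 21.95 and 19.8 CPM in pEx5 knockdown lysates, against 139 and 139 CPM in mEx5 and 135 and 125 CPM in pEx5 control lysates. Rescue lysates held 186 to 281.5 CPM, above every control library, with reads of the cDNA and of the endogenous gene not told apart. Of 16 noradrenergic neuroblastoma markers, 12 reached 1 RPKM (reads scaled to transcript length and library depth). The summed level of all 16 in total lysate was 1516 to 1779 RPKM in knockdown, 1452 to 1715 RPKM in rescue and 1975 to 2141 RPKM in control libraries, and its part in the results below was not tested. Sums of fibroblast, leukocyte, glial and epithelial markers did not exceed 9.38 RPKM in any lysate, and Ptprc, Col3a1 and Adgre1 were at 0. The chi-square between the 2 replicates of a group was 14.9 to 64.0 times that of sampling noise, so no pair looked like 1 library deposited again.

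The members were well expressed. Their median level in control lysates was 47.4 RPKM, against 26.1 RPKM over all genes with counts. The highest were Pcna, the sliding clamp, at 214 ± 30 RPKM, Rpa3, the small subunit of the single-strand binding complex RPA, at 164 ± 20.5 RPKM, Cdt1, the MCM loading factor, at 150.5 ± 20.7 RPKM, and Dut, which removes dUTP, at 144 ± 16.6 RPKM (SD, n = 4). The lowest were Orc1, the largest origin recognition subunit, at 3.80 ± 0.43 RPKM, Gins3 at 5.44 ± 0.84 RPKM and Pola1, the catalytic subunit of polymerase alpha, at 7.10 ± 0.31 RPKM (SD, n = 4). Partners in a complex thus differed widely in transcript level per length, as Gins4 at 79.2 ± 5.04 RPKM did from Gins3.

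Because many members are known E2F targets, their promoters were searched for 4 spellings of the E2F site, TTTGGCGC, TTTCCCGC, TTTGCCGC and TTTCGCGC, on both strands. RefSeq promoters (GRCm38.p6, 250 bases before to 50 after a start site) were listed for 41 of 49 members at 48 start sites, and a gene counted if any of its start sites held a match. For Cdc6, Dut and E2f1 the whole window, and for Mcm7 each of its windows, lay inside the gene span of the GENCODE annotation. Bases upstream of that span were thus not searched for these genes, and Dut and E2f1 counted as holding no match. A match was found for 15 of 41 members (36.6%), against 390 of 7256 genes with counts (5.37%) and 704 of 27025 listed genes (2.60%). The 21 matches lay between 185 bases before and 39 bases after the start site, and overlapping matches, as in Mcm5 and Mcm6, were each counted. The CCAAT box, by the letters CCAAT, was found in 25 of 41 members (61.0%), against 44.2% of genes with counts and 41.1% of all. The cell cycle homology region known from G2/M genes, by the letters TTTGAA, was found in 5 of 41 members (12.2%), against 13.6% of genes with counts and 20.2% of all. The 4 promoters below are of Cdc6 and Mcm5, which rose after knockdown, and of Pold1 and Prim1, which fell in total lysate. Capitals mark E2F matches, and Prim1 holds none of the 4 spellings in this window.
Cdc6 (chr11:98907901-98908200, plus strand): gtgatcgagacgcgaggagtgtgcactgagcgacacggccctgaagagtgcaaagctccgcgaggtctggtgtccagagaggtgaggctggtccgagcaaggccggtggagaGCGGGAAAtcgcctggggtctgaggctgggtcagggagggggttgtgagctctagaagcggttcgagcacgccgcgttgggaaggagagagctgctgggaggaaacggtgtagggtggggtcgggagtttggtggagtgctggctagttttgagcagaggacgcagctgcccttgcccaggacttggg
Mcm5 (chr8:75109259-75109558, plus strand): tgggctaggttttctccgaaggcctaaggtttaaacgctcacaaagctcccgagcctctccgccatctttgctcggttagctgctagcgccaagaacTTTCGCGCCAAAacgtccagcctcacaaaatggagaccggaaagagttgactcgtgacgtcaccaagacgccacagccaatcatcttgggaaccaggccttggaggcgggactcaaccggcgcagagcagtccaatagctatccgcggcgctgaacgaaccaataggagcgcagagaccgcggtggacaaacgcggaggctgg
Pold1 (chr7:44548766-44549065, minus strand): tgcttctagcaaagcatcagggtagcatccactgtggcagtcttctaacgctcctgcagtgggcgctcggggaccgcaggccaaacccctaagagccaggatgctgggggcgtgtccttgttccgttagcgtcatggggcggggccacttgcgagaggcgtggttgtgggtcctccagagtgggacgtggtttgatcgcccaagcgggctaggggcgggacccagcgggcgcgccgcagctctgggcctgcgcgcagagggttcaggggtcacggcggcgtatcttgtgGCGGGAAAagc
Prim1 (chr10:128014965-128015264, plus strand): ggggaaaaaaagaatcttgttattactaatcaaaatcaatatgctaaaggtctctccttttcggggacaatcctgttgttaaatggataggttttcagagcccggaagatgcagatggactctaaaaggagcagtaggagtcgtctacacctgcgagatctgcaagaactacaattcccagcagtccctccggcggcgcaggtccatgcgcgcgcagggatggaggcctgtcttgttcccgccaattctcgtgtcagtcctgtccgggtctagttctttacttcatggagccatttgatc
A match thus stood on both sides: 8 of 20 members called higher in knockdown lysates held 1 (40.0%), as did 2 of 4 called lower (Lig1 and Pold1, 50.0%) and 5 of 17 not called (29.4%). A match is a run of letters and no measure of binding.

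After Chtop knockdown, 21 of 49 members rose in total lysate and 4 fell (edgeR quasi-likelihood test, Benjamini-Hochberg adjusted p below 0.05 over all genes), while 21.4% of all 9237 genes tested rose and 22.6% fell. The median member changed by a log2 fold change of 0.20, against 0.01 over all genes, and 38 of 49 members lay above 0, called or not. With the replicate block, a fit that pairs libraries by their number, 31 rose and 5 fell, while 31.4% of all genes rose and 31.4% fell. The rises reached from Rrm1, the large subunit of ribonucleotide reductase, at 0.15 to Cdc6 at 0.59. Summed over the 49 members, the level was 4469 to 4799 CPM in knockdown, 4157 to 4520 CPM in rescue and 3809 to 4437 CPM in control lysates. Knockdown lysates thus lay above all control lysates by a narrow gap. In nuclei the sums overlapped, at 4180 to 4824 CPM in knockdown and 3554 to 4274 CPM in control. In cytoplasm they did not, at 4682 to 5015 CPM in knockdown and 4310 to 4573 CPM in control.

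**Figure D1:**
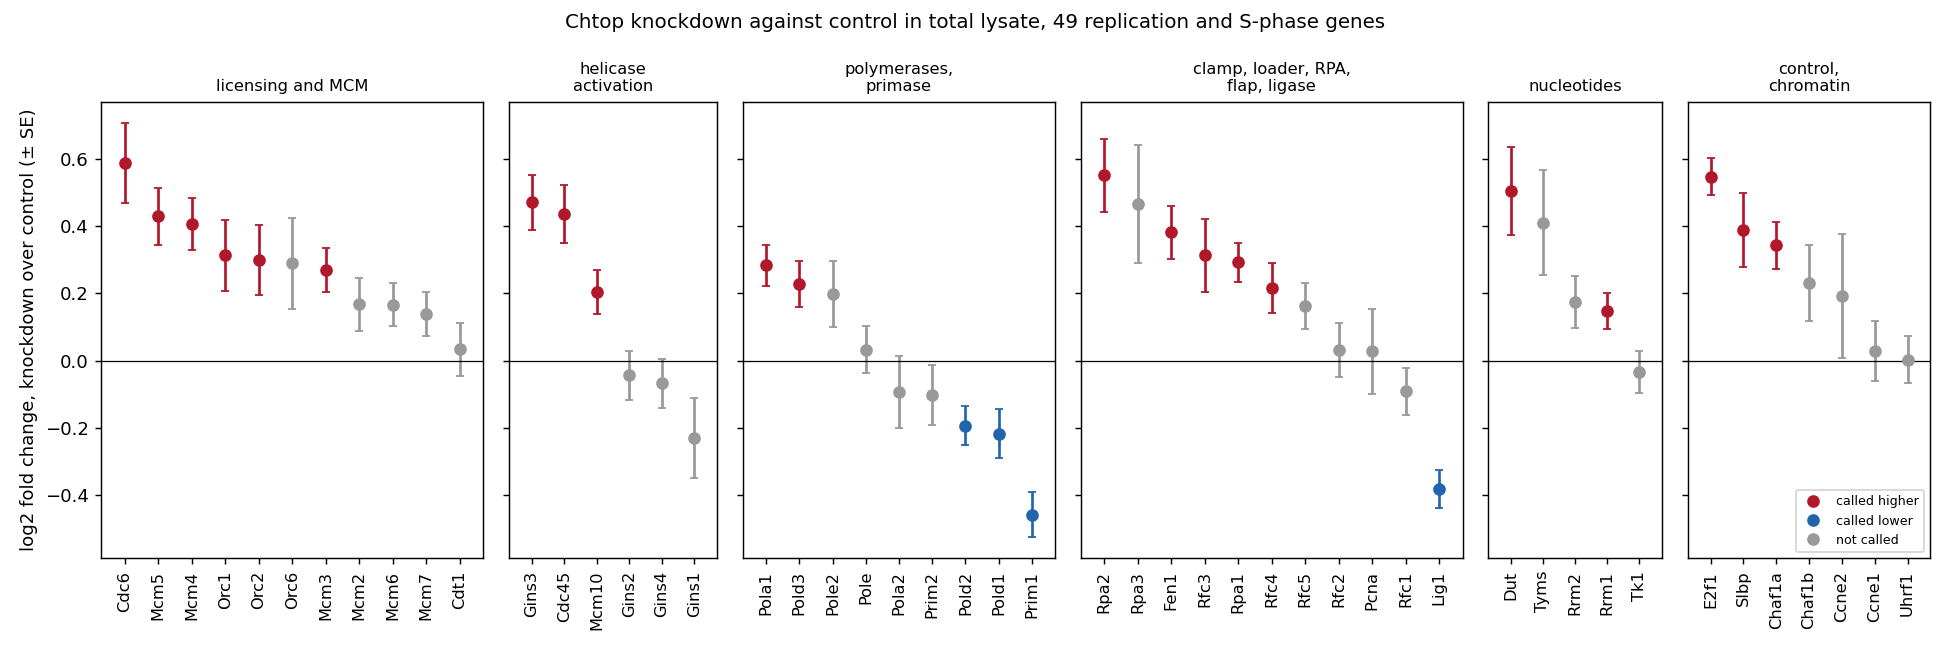
Log2 fold change of each of the 49 members, Chtop knockdown over control in total lysate (vertical axis, points with SE), grouped by role. All 11 licensing genes lie above 0, and the 4 called lower are Prim1, Lig1, Pold1 and Pold2.

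The counts by role that follow stand beside those shares of 21.4% and 22.6% over all genes. Among the 11 licensing genes, 6 rose, 0 fell and all 11 lay above 0, with a median of 0.29. At an unadjusted p below 0.05, 7 of them passed, 0 of these lower, while 51.9% of all genes passed in either direction. The 4 members that DESeq2 called lower were Prim1, Lig1, Pold1 and Pold2, as with edgeR. Cdc6 (chromosome 11, 98907801 to 98923940, plus strand, mm10), which loads MCM onto origins, had 34.0 and 34.8 CPM in mEx5 and 36.2 and 31.5 CPM in pEx5 knockdown lysates, against 24.6 and 20.7 CPM in mEx5 and 26.3 and 18.4 CPM in pEx5 control lysates. The groups did not overlap, and the level was 1.50-fold higher (log2 0.59, SE 0.12, edgeR adjusted p = 0.0034). Mcm5 (chromosome 8, 75109569 to 75128439, plus strand), a helicase subunit, had 223 and 231 CPM in mEx5 and 224 and 200.4 CPM in pEx5 knockdown lysates, against 179 and 167 CPM in mEx5 and 165 and 137 CPM in pEx5 control lysates. Again every knockdown library was above every control library (1.35-fold, log2 0.43, SE 0.085, edgeR adjusted p = 0.0029). Of the other MCM subunits, Mcm4 (0.41) and Mcm3 (0.27) also rose, whereas Mcm2 (0.17), Mcm6 (0.17) and Mcm7 (0.14) did not pass without the replicate block and passed with it (edgeR adjusted p = 0.023 for Mcm2, 0.012 for Mcm6 and 0.031 for Mcm7). Orc1 (0.31) and Orc2 (0.30) rose, and Orc6 at 0.29 with a SE of 0.14 likewise passed with the block and not without it (edgeR adjusted p = 5.3e-04). Cdt1, whose protein works with CDC6, was at 0.03 and Pcna at 0.03, with an edgeR adjusted p of 0.75 for Cdt1 and 0.88 for Pcna.

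Of the 6 genes for helicase activation, 3 rose and 3 lay below 0 without a call. Cdc45 (chromosome 16, 18780447 to 18811987, minus strand) had 48.4 and 47.1 CPM in mEx5 and 50.6 and 45.7 CPM in pEx5 knockdown lysates, against 38.3 and 38.3 CPM in mEx5 and 35.7 and 28.7 CPM in pEx5 control lysates. It was 1.35-fold higher with no overlap (log2 0.44, SE 0.085, edgeR adjusted p = 0.0026). The GINS genes, whose products form a complex of 4 subunits, did not share a call. Gins3 (chromosome 8, 95633453 to 95645060, plus strand) had 14.4 and 13.6 CPM in mEx5 and 12.5 and 12.6 CPM in pEx5 knockdown lysates, against 10.4 and 10.8 CPM in mEx5 and 9.24 and 7.69 CPM in pEx5 control lysates. It rose 1.39-fold without overlap (log2 0.47, SE 0.082, edgeR adjusted p = 0.0015), while Gins2 at -0.04 and Gins4 at -0.07 did not pass. Gins1 at -0.23 was not called, but was lower with the replicate block (edgeR adjusted p = 0.0077). Mcm10, which helps to activate the helicase, rose by 0.20.

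Of the 9 polymerase and primase genes, 2 rose and 3 fell, counts not far from the shares of 21.4% and 22.6% over all genes, and the median was -0.09. Prim1 (chromosome 10, 128015168 to 128030037, plus strand), the catalytic primase subunit, had 65.1 and 71.4 CPM in mEx5 and 63.1 and 59.2 CPM in pEx5 knockdown lysates, against 97.4 and 96.6 CPM in mEx5 and 85.7 and 73.2 CPM in pEx5 control lysates. It was 1.37-fold lower, and all knockdown libraries were below all control libraries (log2 -0.46, SE 0.068, edgeR adjusted p = 5.9e-04). Its partner in the primase dimer, Prim2, was at -0.10 and did not pass. Pold1 (chromosome 7, 44532746 to 44548849, minus strand), the catalytic subunit of polymerase delta, had 151.5 and 181.5 CPM in mEx5 and 159 and 189 CPM in pEx5 knockdown lysates, against 193 and 201 CPM in mEx5 and 183 and 206 CPM in pEx5 control lysates. The groups overlapped by 1 library each, and the fall was small (log2 -0.22, SE 0.072, edgeR adjusted p = 0.034). Its subunit Pold2 (chromosome 11, 5872180 to 5878292, minus strand) had 106 and 119.6 CPM in mEx5 and 110.2 and 122 CPM in pEx5 knockdown lysates, against 131 and 131 CPM in mEx5 and 125 and 131 CPM in pEx5 control lysates. These did not overlap (log2 -0.19, SE 0.058, edgeR adjusted p = 0.021). The third delta subunit, Pold3, rose by 0.23, and Pola1 rose by 0.28.

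Among the 11 genes for the clamp, its loader, single-strand binding, flap removal and ligation, 5 rose and 1 fell. Rpa2 (chromosome 4, 132768332 to 132778752, plus strand), the middle subunit of RPA, had 96.0 and 83.3 CPM in mEx5 and 90.5 and 80.1 CPM in pEx5 knockdown lysates, against 63.1 and 53.5 CPM in mEx5 and 66.4 and 53.9 CPM in pEx5 control lysates. It was 1.46-fold higher with no overlap (log2 0.55, SE 0.11, edgeR adjusted p = 0.0029). Fen1, the flap nuclease (0.38), the clamp loader genes Rfc3 (0.31) and Rfc4 (0.22), and Rpa1 (0.29) rose too. Lig1 (chromosome 7, 13277283 to 13311433, plus strand), the replicative ligase that joins the fragments FEN1 trims, went the other way. It had 185 and 203 CPM in mEx5 and 178 and 189.6 CPM in pEx5 knockdown lysates, against 243 and 252 CPM in mEx5 and 234 and 245 CPM in pEx5 control lysates. All knockdown libraries were below all control libraries (1.30-fold lower, log2 -0.38, SE 0.056, edgeR adjusted p = 5.4e-04).

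In nucleotide supply 2 of 5 genes rose. Dut (chromosome 2, 125247190 to 125258608, plus strand) had 174 and 128 CPM in mEx5 and 155 and 129.9 CPM in pEx5 knockdown lysates, against 116 and 101 CPM in mEx5 and 104 and 90.2 CPM in pEx5 control lysates. It was 1.42-fold higher without overlap, with a wide spread inside the conditions (log2 0.50, SE 0.13, edgeR adjusted p = 0.011). Replicate 1 was above replicate 2 in each line and condition, and with the replicate block the SE was 0.058 (edgeR adjusted p = 1.3e-06). Tyms, thymidylate synthase, was at 0.41 (SE 0.16, edgeR adjusted p = 0.056, and 2.7e-04 with the replicate block). Rrm2 at 0.18 did not pass, but did with the block (edgeR adjusted p = 0.015), and Tk1 at -0.03 did not pass. Of the 7 genes for S-phase control and chromatin, 3 rose. E2f1 (chromosome 2, 154559407 to 154569892, minus strand), an activating E2F factor, had 147 and 149.6 CPM in mEx5 and 143 and 144 CPM in pEx5 knockdown lysates, against 99.6 and 92.2 CPM in mEx5 and 104.5 and 99.2 CPM in pEx5 control lysates. It was 1.46-fold higher with a narrow spread inside each condition (log2 0.55, SE 0.054, edgeR adjusted p = 5.8e-05). Slbp, the histone mRNA stem-loop binding protein (0.39), and Chaf1a, a chromatin assembly subunit (0.34), rose, while Ccne1 at 0.03 and Uhrf1 at 0.00 did not pass.

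**Figure D2:**
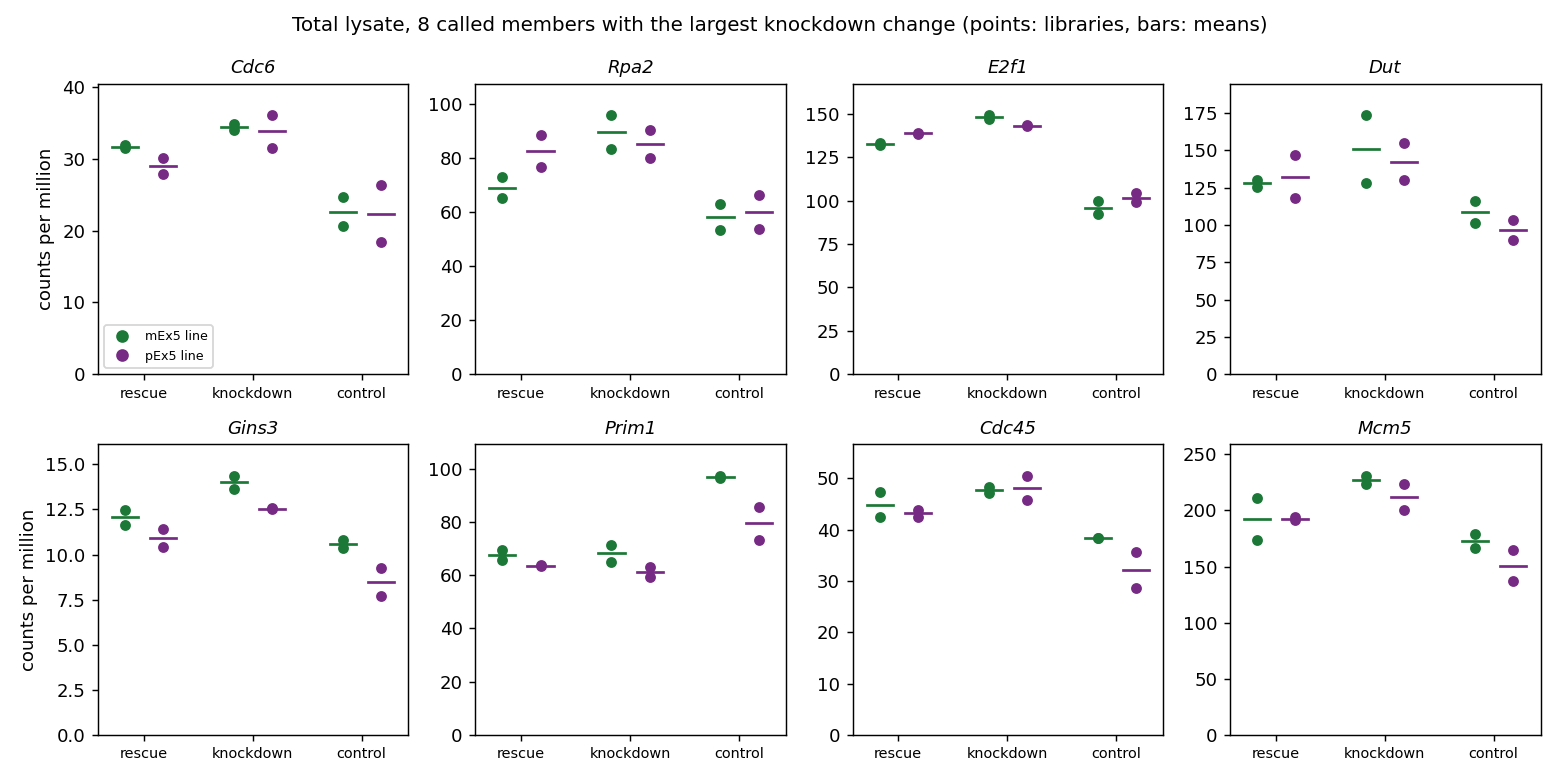
CPM in total lysate (vertical axis) for the 8 called members with the largest knockdown change, by condition, with a point per library and a bar for the mean of each line. Knockdown libraries lie above all control libraries for 7 genes and below them for Prim1. As these genes were picked for their change in the same lysates, this separation is no further support. The share of all genes so separated was not computed.

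By line, the log2 fold change was 0.59 in mEx5 and 0.58 in pEx5 cells for Cdc6. It was 0.62 in mEx5 and 0.47 in pEx5 cells for E2f1, and -0.52 in mEx5 and -0.40 in pEx5 cells for Prim1. No member was called for a difference between the lines in its response to knockdown (edgeR, 0 of 49 called in each fraction, with 0, 2 and 0 at an unadjusted p below 0.05 in total lysate, nuclei and cytoplasm, and 0 called by DESeq2). The median SE of that difference was 0.16 in total lysate, which limits the differences that could be called. Without mEx5 control replicate 2 or without pEx5 control replicate 2, 13 members rose in place of 21. Without mEx5 control replicate 1 or 2, mEx5 knockdown replicate 1, pEx5 control replicate 2 or pEx5 knockdown replicate 1, and with scaling by library totals, 2 members fell in place of 4, the lost calls being Pold1 and Pold2.

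The same comparison in nuclei gave 19 members higher and 0 lower, while 15.4% of all genes rose and 16% fell. At an unadjusted p below 0.05, 25 of 49 members passed, 0 of these lower, while 42.6% of all genes passed in either direction. DESeq2 called 21 members higher and 0 lower. The median member was at 0.28, against 0.00 over all genes. Cdc45 had the largest rise, with 45.2 and 41.7 CPM in mEx5 and 43.8 and 39.1 CPM in pEx5 knockdown nuclei, against 29.7 and 30.1 CPM in mEx5 and 28.5 and 21.99 CPM in pEx5 control nuclei (1.58-fold, log2 0.66, SE 0.094, edgeR adjusted p = 8.0e-04). Cdc6 (0.61), Mcm5 (0.58), Ccne2, the E-type cyclin that drives CDK2 (0.56), Rfc3 (0.50) and Rpa2 (0.50) followed. Some members rose in nuclei that were not called in total lysate, among them Mcm7 (0.44), Rfc2 (0.36) and Pola2, a subunit of polymerase alpha (0.32). Pold1, lower in total lysate, was higher in nuclei, at 299 and 338 CPM in mEx5 and 306 and 346 CPM in pEx5 knockdown nuclei, against 247 and 289 CPM in mEx5 and 282 and 272 CPM in pEx5 control nuclei (log2 0.28, SE 0.089, edgeR adjusted p = 0.037). Without mEx5 control replicate 1, 11 members rose, without mEx5 control replicate 2, 10 rose, without pEx5 control replicate 2, 7 rose, and without pEx5 knockdown replicate 1, 8 rose. With the replicate block, 32 rose and 0 fell, while 27.8% of all genes rose and 27.6% fell.

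In cytoplasm 16 members rose and 4 fell after knockdown, while 19.8% of all genes rose and 20.9% fell, and the median was 0.15 against 0.00 over all genes. The licensing genes were again on one side, with 6 of 11 called higher and 0 lower, led by Cdc6 (0.59) and Mcm5 (0.44). At an unadjusted p below 0.05, 8 of these 11 passed (edgeR, 0 of them lower), while 49.6% of all genes passed in either direction. The 4 members that fell in cytoplasm were Prim1 (-0.50), Gins1 (-0.35), Lig1 (-0.34) and Gins2 (-0.22). Gins1 (chromosome 2, 150905400 to 150931280, plus strand) had 21.97 and 19.5 CPM in mEx5 and 21.7 and 20.2 CPM in pEx5 knockdown cytoplasm, against 31.5 and 24.3 CPM in mEx5 and 23.6 CPM in pEx5 control cytoplasm (SE 0.11, edgeR adjusted p = 0.026). Gins2 (chromosome 8, 120578633 to 120589304, minus strand) had 62.1 and 63.6 CPM in mEx5 and 52.4 and 60.7 CPM in pEx5 knockdown cytoplasm, against 71.2 and 67.3 CPM in mEx5 and 65.3 CPM in pEx5 control cytoplasm (SE 0.076, edgeR adjusted p = 0.035). Both GINS genes lay below all control libraries, in a comparison that has 1 library for the pEx5 control. Without mEx5 control replicate 2, 9 members rose, and without mEx5 knockdown replicate 1, 10 rose. Without mEx5 control replicate 1 or mEx5 knockdown replicate 2, as with all 35 libraries in 1 fit, 2 fell. With library totals, 21 members rose and 3 fell, beside 2277 higher and 1547 lower of all genes in place of 1832 and 1931. In all 3 fractions 7 members rose, Cdc45, Cdc6, Chaf1a, E2f1, Mcm5, Orc2 and Rpa2, which is 14.3% of members against 7.55% of all genes. As the fractions share their cells, a rise in all 3 is not 3 independent results.

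Rescue was compared with knockdown to ask how far re-expressed Chtop changes these transcripts. No member was called in any fraction (edgeR, 0 higher and 0 lower of 49), while few genes of any kind were: 0.0217% higher and 0% lower in total lysate, 0.0108% higher and 0% lower in nuclei, and 0.0325% higher and 0.0108% lower in cytoplasm. DESeq2 called 0 members as well. At an unadjusted p below 0.05, 8 members were lower in rescue in total lysate (Mcm3, Mcm5, Mcm6, Mcm7, Gins2, Gins3, Gins4 and Chaf1a), while 7.15% of all genes passed in either direction. In nuclei 2 passed and in cytoplasm 7, against 8.35% and 9.59% of all genes. The values leaned to lower levels in rescue: 43 of 49 members lay below 0 in total lysate, with a median of -0.11 against 0.01 over all genes, of which 46.4% lay below 0. In nuclei 34 lay below 0 (median -0.05) and in cytoplasm 40 (median -0.07), where 50.3% and 49.8% of all genes did. This comparison shares its knockdown libraries with the comparison of knockdown and control, so the 2 sets of values are not independent.

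By role, the 6 helicase activation genes all lay below 0 in rescue lysates, with a median of -0.16, and the 11 licensing genes likewise, with a median of -0.13. The 9 polymerase and primase genes had a median of 0.01, with 3 below 0. Gins3 was at 11.6 and 12.5 CPM in mEx5 and 10.4 and 11.4 CPM in pEx5 rescue lysates, below every knockdown library (log2 -0.22, SE 0.081, edgeR adjusted p = 0.68). Prim1 was at 65.9 and 69.6 CPM in mEx5 and 63.4 and 63.7 CPM in pEx5 rescue lysates, inside the knockdown range (log2 0.01, SE 0.068, edgeR adjusted p = 0.97). Lig1 was likewise inside or just below that range, with 173 and 199.5 CPM in mEx5 and 183 and 192 CPM in pEx5 rescue lysates (log2 -0.03, SE 0.056, edgeR adjusted p = 0.92). E2f1 was at 132 and 133 CPM in mEx5 and 139 and 139 CPM in pEx5 rescue lysates, between the control and the knockdown libraries (log2 -0.11, SE 0.054, edgeR adjusted p = 0.68). In cytoplasm, Ccne2 had the lowest value, -0.42 (SE 0.18), with 26.1 and 19.8 CPM in mEx5 and 17.1 and 15.3 CPM in pEx5 rescue cytoplasm against 28.7 and 25.02 CPM in mEx5 and 31.4 and 18.2 CPM in pEx5 knockdown cytoplasm. Without pEx5 knockdown replicate 2, 7 members were called lower and 1 higher in rescue cytoplasm. The replicate block called 0 members in every fraction, while it called 0.964% of all genes higher and 0.877% lower in total lysate, 2.77% higher and 4.07% lower in nuclei, and 0.0649% higher and 0.0108% lower in cytoplasm. The isoforms were not told apart either: 0 of 49 members were called for a difference between the lines in their response to rescue in any fraction (edgeR, with 0, 0 and 2 at an unadjusted p below 0.05, and 0 by DESeq2), and the median SE of that difference was 0.16 in total lysate.

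**Figure D3:**
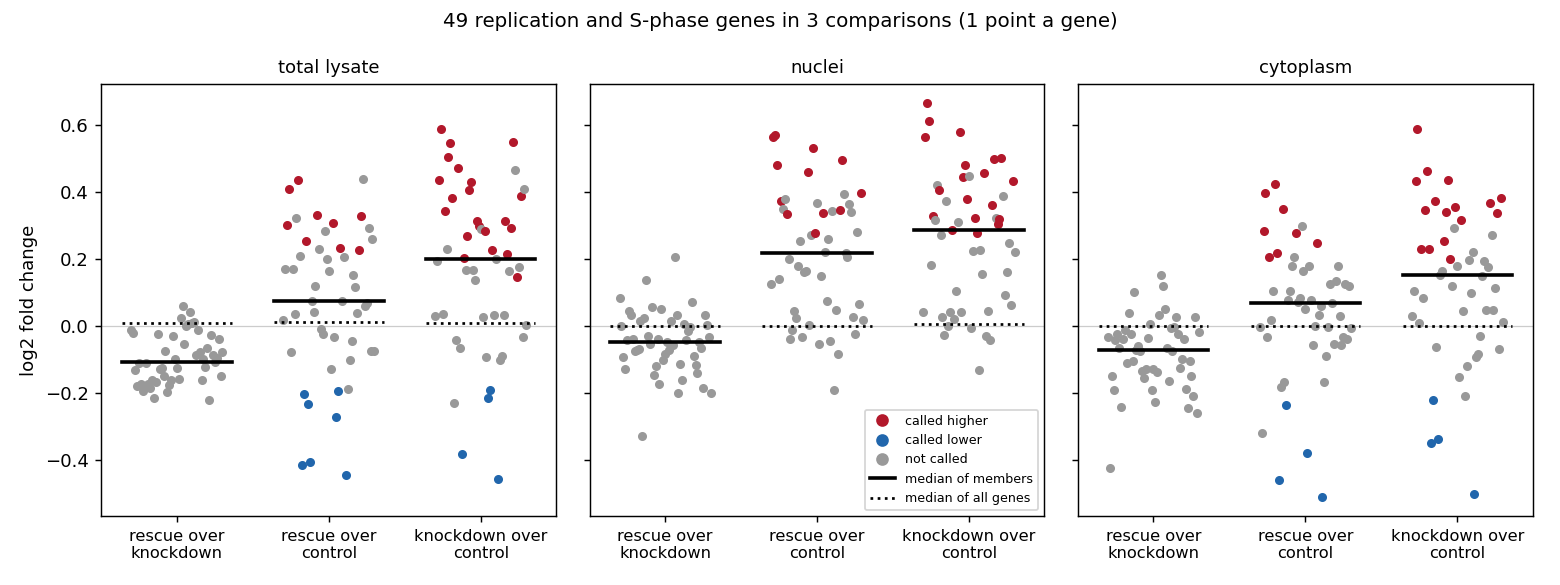
Log2 fold changes (vertical axis) of the 49 members, a point each, for rescue over knockdown, rescue over control and knockdown over control in total lysate, nuclei and cytoplasm. Solid bars give the median of the members, which in total lysate is -0.11, 0.07 and 0.20, and dotted bars that of all genes.

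Set against control, 9 members were higher and 7 lower in rescue lysates, while 18.3% of all genes were higher and 19% lower. The median was 0.07, against 0.01 over all genes. Higher were Rpa2, Cdc6, E2f1, Mcm4, Pola1, Cdc45, Gins3, Rpa1 and Pold3, of which E2f1 had the largest log2 fold change at 0.43. Lower were Prim1 (-0.44), Gins1 (-0.42), Lig1 (-0.41), Pold1 (-0.27), Gins4, Gins2 and Pold2. In nuclei 12 were higher and 0 lower, while 11.5% of all genes were higher and 12.2% lower, and DESeq2 gave 18 higher and 0 lower. At an unadjusted p below 0.05 (edgeR), 21 members passed in nuclei, 1 of these lower, while 37.3% of all genes passed in either direction. In cytoplasm 8 were higher and 4 lower, while 17.2% of all genes were higher and 18.4% lower. With the replicate block, 20 were higher and 9 lower in total lysate, where 29.6% of all genes were higher and 28.3% lower. In nuclei it gave 29 higher and 1 lower, where 24.4% of all genes were higher and 25.5% lower. Scaled by library totals, 14 were higher and 4 lower in total lysate and 12 higher and 3 lower in cytoplasm, beside 2115 higher and 1308 lower of all genes in cytoplasm in place of 1593 and 1703. Leaving out a library gave 3 to 13 higher and 2 to 7 lower in total lysate, 2 to 13 higher in nuclei, and 3 to 10 higher and 3 to 5 lower in cytoplasm. In total lysate 3 to 5 were higher without mEx5 control replicate 2, mEx5 rescue replicate 2, pEx5 control replicate 2 or pEx5 rescue replicate 1. There 2 to 4 were lower without mEx5 control replicate 1 or 2, mEx5 rescue replicate 1, pEx5 control replicate 2 or pEx5 rescue replicate 2. In nuclei 2 were higher without pEx5 control replicate 2, and 5 to 7 without either mEx5 control, either mEx5 rescue library or pEx5 rescue replicate 1. In cytoplasm 3 to 4 were higher without mEx5 control replicate 2, either mEx5 rescue library or pEx5 rescue replicate 1.

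Nuclei were compared with cytoplasm under control siRNA to place the members at baseline. Of 49, 10 were higher in nuclei and 22 lower, while 33.8% of all genes were higher and 36.1% lower, with a median log2 ratio of -0.22 against -0.03 over all genes. The polymerase genes leaned to the nucleus, with 5 of 9 called higher and 2 lower (median 0.30). The clamp, loader and ligase group leaned to the cytoplasm, with 0 of 11 called higher and 6 lower (median -0.40). At an unadjusted p below 0.05, 7 of these 11 passed (edgeR, all 7 lower), while 72.7% of all genes passed in either direction. Pola2 (chromosome 19, 5940542 to 5964202, minus strand) had 67.7 and 81.3 CPM in mEx5 and 54.0 and 58.6 CPM in pEx5 control nuclei, against 38.3 and 42.8 CPM in mEx5 and 35.9 CPM in pEx5 control cytoplasm (log2 0.77, SE 0.11, edgeR adjusted p = 1.8e-05). Pold1 was at 247 to 289 CPM in control nuclei and 164 to 188 CPM in control cytoplasm (log2 0.65, SE 0.10), and Orc1 (chromosome 4, 108579423 to 108614833, plus strand) at 10.3 to 15.8 CPM in control nuclei and 7.56 to 9.34 CPM in control cytoplasm (log2 0.57, SE 0.13). At the other end, Dut had 59.5 and 48.5 CPM in mEx5 and 59.5 and 42.7 CPM in pEx5 control nuclei, against 111 and 92.3 CPM in mEx5 and 93.7 CPM in pEx5 control cytoplasm (log2 -0.89, SE 0.18, edgeR adjusted p = 3.0e-04). Rpa3 (chromosome 6, 8255936 to 8259173, minus strand) was at -0.82 (SE 0.19) and Gins4 (chromosome 8, 23226616 to 23237659, minus strand) at -0.80 (SE 0.074). Across the 49 genes the ratio had a Spearman rho of 0.19 with transcript length (670 to 7163 bases), a description over genes that share libraries. The control log2 ratios in the authors' deposited table differ from these by -0.82 to 1.42 (theirs minus these) and have the opposite sign for 6 of 49 members. That table gives 2.07 for Pold1, 1.41 for Pola2, 0.57 for Mcm3 and -0.34 for Tyms (the authors' deposited table), where the counts here gave 0.65 for Pold1, 0.77 for Pola2, -0.29 for Mcm3 and 0.49 for Tyms. The labels of those ratios name DESeq2 normalised counts and a merged control, without further steps. What caused the gap was not tested.

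**Figure D4:**
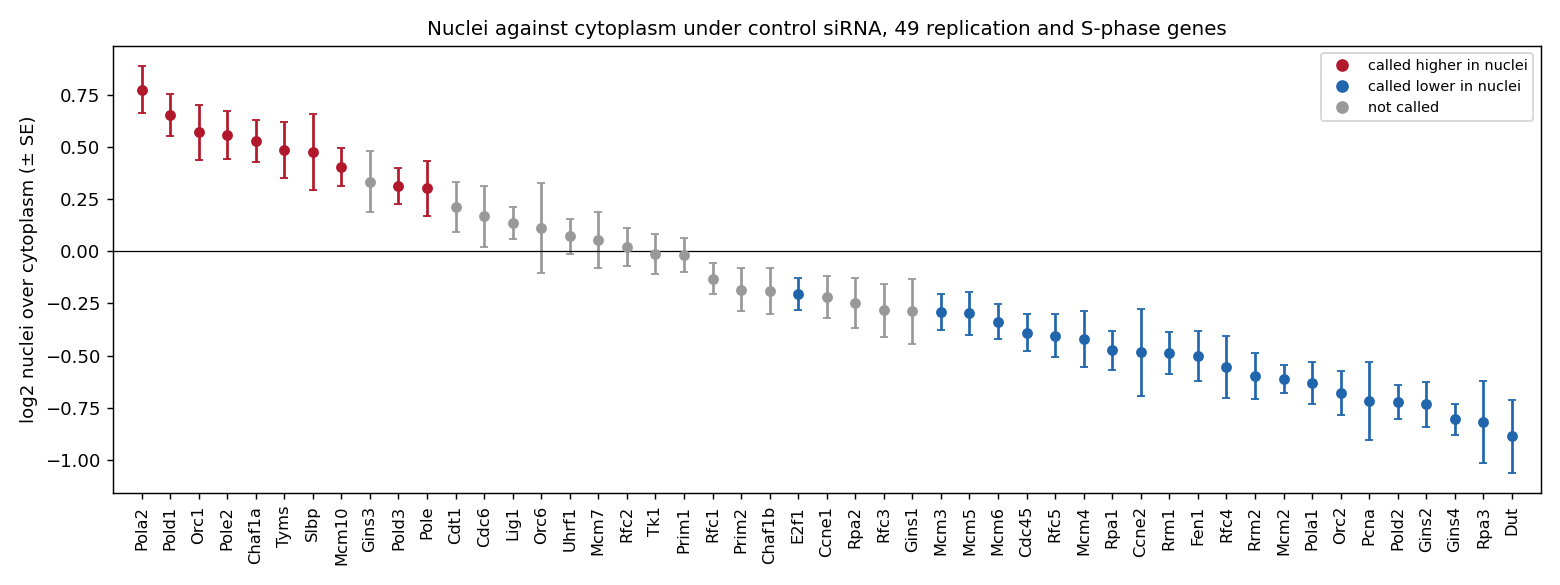
Log2 ratio of nuclei over cytoplasm under control siRNA (vertical axis, points with SE) for the 49 members in order. Pola2 at 0.77 and Dut at -0.89 are the ends of the range.

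The knockdown shift, the change in the nuclear to cytoplasmic ratio, was called higher for 3 members and lower for 0, while 3.83% of all genes were called higher and 1.31% lower. At an unadjusted p below 0.05, 4 of 49 members passed, 0 of these lower, while 20.8% of all genes passed in either direction. DESeq2 called 4 members higher and 0 lower. The median shift was 0.14 against 0.01 over all genes, and 41 of 49 members lay above 0. Those called were Pold1 (0.50, SE 0.13), Prim1 (0.48, SE 0.11) and Lig1 (0.39, SE 0.10), with edgeR adjusted p values of 0.038, 0.020 and 0.038. Prim1 had 80.4 and 86.6 CPM in mEx5 and 74.6 and 69.1 CPM in pEx5 knockdown nuclei, against 94.5 and 93.2 CPM in mEx5 and 78.3 and 62.1 CPM in pEx5 control nuclei. Its cytoplasmic libraries held 59.4 and 66.4 CPM in mEx5 and 56.8 and 59.5 CPM in pEx5 knockdown cells, against 86.5 and 86.8 CPM in mEx5 and 79.0 CPM in pEx5 control cells. The nuclear values of knockdown and control overlapped, and the cytoplasmic ones did not. Lig1 showed the same split, at 233 to 246 CPM in knockdown and 215 to 256 CPM in control nuclei, but 159.7 to 195 CPM in knockdown and 212 to 237 CPM in control cytoplasm. Pold1 was at 133 to 172 CPM in knockdown and 164 to 188 CPM in control cytoplasm, which overlapped, while its nuclear level was higher as given above.

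**Figure D5:**
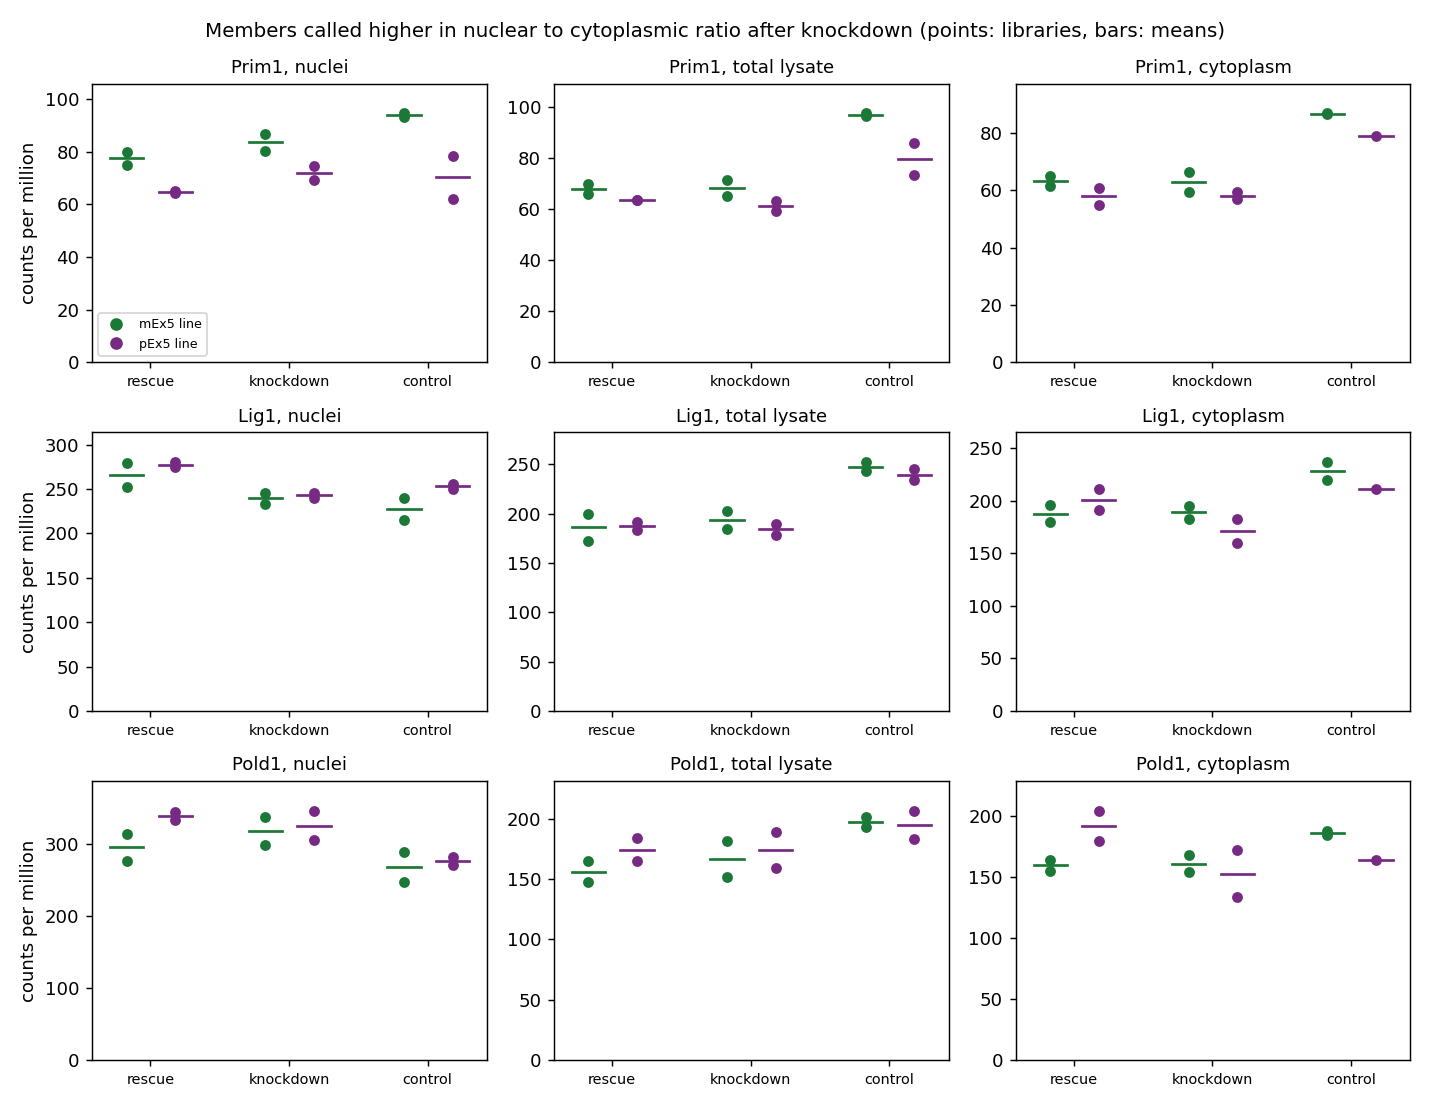
CPM (vertical axis) of Prim1, Lig1 and Pold1 in nuclei, total lysate and cytoplasm, by condition, with a point per library and a bar for the mean of each line. For Prim1 and Lig1 the knockdown libraries are below all control libraries in total lysate and cytoplasm and overlap them in nuclei.

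These 3 shift calls were near the threshold. Scaled by library totals, 1 member was called, Prim1, and the genes called over the whole table were 206 higher and 411 lower in place of 354 and 121. Without cytoplasmic mEx5 knockdown replicate 1, 0 members were called. For 11 other libraries left out, 1 was called: in nuclei mEx5 control replicate 1, mEx5 knockdown replicate 2, pEx5 control replicate 2 and both pEx5 knockdown replicates, and in cytoplasm mEx5 control replicate 1, mEx5 knockdown replicate 2, both mEx5 rescue replicates, pEx5 knockdown replicate 1 and pEx5 rescue replicate 1. With the replicate block 5 were called higher and 0 lower, while 8.29% of all genes were called higher and 4.57% lower. The shift of rescue against knockdown was called for 0 members (edgeR, 0 at an unadjusted p below 0.05, and 0 by DESeq2). Prim1, Lig1 and Pold1 all carry the mark for overlap with Chtop iCLIP, a map of its RNA contacts, in the authors' deposited table, as do 30 of 49 members (61.2%) and 4484 of 9239 genes (48.5%).

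Other genes of the cell cycle were counted in knockdown lysates by lists chosen with earlier results of these data known, and stand beside 21.4% of all genes that rose and 22.6% that fell. Of 56 other replication genes, 23 rose and 3 fell, with a median of 0.18. Ung, which removes uracil from DNA (1.00), Shmt1, a folate enzyme (0.65), Dna2, a nuclease and helicase (0.58), Pole4, a small polymerase epsilon subunit (0.50), and Cdca7 (0.49) rose, and Pold4, the small delta subunit, fell (-0.85). Of 30 tested G1/S regulators, 12 rose and 4 fell, with a median of 0.16. Among them E2f7 (0.93) and E2f2 (0.65), the cyclin Ccnd3 (0.54) and the CDK inhibitor Cdkn2c (0.53) rose, while the CDK inhibitor Cdkn1b fell (-0.45) and Lin52 rose (0.34). Of 19 tested checkpoint and p53 target genes, 6 rose and 6 fell, not far from those shares, with a median of 0.11. The checkpoint kinases Atm (0.38) and Atr (-0.76) differed in direction, as did the clamp subunits Rad1 (0.48) and Rad9a (-0.35), and the p53 targets Gadd45a (-0.83) and Phlda3 (-0.46) fell. Of 27 G2/M genes, 3 rose and 8 fell, with a median of -0.12, and Cenpf (-0.53), Ttk (-0.39), Aurka (-0.26), Plk1 (-0.24) and Bub1 (-0.20) fell while Aurkb rose (0.25). Summed, the G2/M genes stood at 3129 to 3496 CPM in knockdown, 3314 to 3480 CPM in rescue and 3491 to 3773 CPM in control lysates, the knockdown range just reaching the control range. In nuclei 3 of them rose and 2 fell, where 15.4% of all genes rose and 16% fell, and in cytoplasm 2 rose and 9 fell, where 19.8% rose and 20.9% fell.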

How the data were processed

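Poly(A) RNA counts of 35 libraries in 18 groups (fraction, line and condition) were analysed. The submitters' processing notes name Salmon 0.14.1, the mm10 genome and DESeq2 without a version. For 9239 genes the authors deposited counts, all whole numbers. How these genes were chosen is not stated in the labels. The deposited RPKM values, scaled to length and depth per the file headers, served for levels between genes and for markers, and 1 RPKM column that matches no sample here was not used. The authors' deposited table of log2 ratios between fractions was read for its control ratios and for its mark of Chtop iCLIP overlap. The mark has no unit. No spike-in is named in the labels, so changes are relative to the typical gene of a fraction.

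Counts were tested with edgeR 4.0.16 (R 4.3.3): filterByExpr (2, 0 and 1 genes removed in total lysate, nuclei and cytoplasm, 0 for nuclei with cytoplasm), TMM scaling, a mean per group and robust quasi-likelihood dispersion. Contrasts average the 2 lines. The main fit of nuclei with cytoplasm has no term for the cells that the fractions share. P-values were adjusted by Benjamini-Hochberg across every gene tested, with calls below 0.05, and SE is the log2 fold change over the root of F. CPM are counts over the library total. The labels call the replicates biological, and p-values measure the spread between them. Only the fit of total lysates was tested on simulated data, for knockdown against control. That simulation had the same dispersion for all genes and no replicate pairing. The members and lists (other replication genes, G1/S regulators, checkpoint and p53 targets, G2/M genes, cell type markers) were chosen with earlier results of these data known. Values per library are given by rule for the 8 called members with the largest change in knockdown lysates and mean CPM of at least 5, members called lower in any fraction, the 3 highest and 3 lowest called between fractions and the 3 largest called shifts, and up to 6 called genes are named per other list. Further members named were picked after their values were seen.

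Replicate numbers come from the labels. Deviations from the group means of same-numbered libraries correlated at 0.35 to 0.79 over 15 pairs of lysates, at 0.52 to 0.72 over 15 nuclear pairs and at 0.059 to 0.65 over 10 cytoplasmic pairs. The numbers therefore pair lysates and nuclei, and not all cytoplasmic libraries. The main fit has no term for this pairing, so calls come from an unpaired fit unless the replicate block is named. After knockdown the block called 31 members higher in place of 21 in total lysate, and 32 in place of 19 in nuclei. As alternatives, DESeq2 1.42.0 replaced edgeR, and edgeR was rerun with DESeq2 size factors, with library totals, without the filter, with the replicate block, on all 35 libraries together, and with each library omitted in turn. Gene positions come from the GENCODE annotation of mm10. RefSeq promoter sequences were not used for 8 members with no entry.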

Additional observations from a re-analysis of the deposited data

Results flagged for a closer look

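Among 15 named genes in 120 groups of 4 libraries (both lines of a condition and fraction), 5 held a library far from the other 3 by Dixon's test, where chance gives about 1 in 20. Pola2 was at 91.0 CPM in nuclear mEx5 knockdown replicate 2, against 74.0 to 75.9 CPM in the other knockdown nuclei, and at 50.0 CPM in total mEx5 control replicate 2, against 36.02 to 38.3 CPM in the other controls. Rpa3 was at 71.0 CPM in cytoplasmic pEx5 knockdown replicate 1, against 45.9 to 49.2 CPM in the other knockdown libraries. Rpa2 was at 75.2 CPM in cytoplasmic mEx5 knockdown replicate 2, below the others at 80.9 to 81.8 CPM. Pold2 was at 125 CPM in total pEx5 control replicate 1, below the other controls at 130.6 to 131.3 CPM.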

How the results depend on the processing

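Of the 20 log2 fold changes rerun under the alternatives (11 in knockdown lysates, 6 between fractions in controls, 3 shifts), 0 reversed. Leaving out a library gave 13 to 27 members higher and 2 to 4 lower after knockdown in total lysate, 7 to 20 higher in nuclei, and 9 to 18 higher and 2 to 5 lower in cytoplasm. For rescue against control it gave 3 to 13 higher and 2 to 7 lower in total lysate, 2 to 13 higher in nuclei and 3 to 10 higher in cytoplasm. For rescue against knockdown in cytoplasm it gave 0 to 1 higher and 0 to 7 lower, for the difference of rescue between the lines 0 to 1, and for the knockdown shift 0 to 4 higher. Library totals gave 2 lower after knockdown in total lysate, 14 higher and 4 lower for rescue against control there, and 1 called shift. All 35 libraries in 1 fit gave 23 higher and 1 lower for rescue against control in nuclei and 2 lower after knockdown in cytoplasm. The replicate block gave 32 higher after knockdown in nuclei, 20 higher for rescue against control in total lysate, 29 higher and 1 lower for it in nuclei, and 5 called shifts. The cause of these moves was not tested, beyond the fewer samples of a fit without a library. Prim1 and Lig1 in total lysate stayed called under all settings, while Pold1 and Pold2 lost their call in 7 and 6. The cytoplasmic pEx5 control has 1 library and could not be left out. With a median SE of 0.078 in total lysate and 0.14 for the shift, smaller changes go uncalled.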
